A study of Homo sapiens with 6 samples.

Results

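The 13 messenger RNAs encoded by human mitochondrial DNA (mtDNA) and 25 nuclear genes whose products copy, transcribe, process, tail or degrade them were followed in 2 lines of HEK293T cells. The genes were chosen by symbol from knowledge of the pathway, with earlier results of these data already known. All 38 had a row among the 20169 Ensembl genes of the count table, matched through the identifiers of GENCODE 29, and all 38 passed the filter on low counts. HEK293T is a human embryonic kidney line that carries the large T antigen of SV40. The CAG line and the PGK line each held a landing pad, a genomic docking site for a reporter gene, driven by the CAG promoter (a strong composite of viral enhancer and actin promoter parts) or by the promoter of the glycolytic gene PGK1. Both lines were monoclonal, so each is 1 clone, and clone and promoter cannot be told apart. Polyadenylated RNA was sequenced from 3 libraries of each line, and nothing in the labels ties them to different cultures. The p-values therefore measure only how these libraries vary, which may be technical variation.

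Mitochondrial DNA is a small circle that is copied and transcribed inside the organelle by proteins made from nuclear genes. Transcription runs around both strands in long precursors. Transfer RNAs lie between most of the coding parts, and cutting at their ends frees the messengers, which then receive a poly(A) tail. The messengers encode core subunits of complexes I, III, IV and V of the respiratory chain. HEK293T cells are proliferating and largely glycolytic in culture but keep active respiration.

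Libraries held 22450538 to 23442542 counts in CAG and 21896246 to 22889708 in PGK. Of 8 kidney and neuronal markers listed for HEK293 cells, 6 were in the table, with a summed level of 86.4 to 88.2 CPM (counts scaled to a common library size) in CAG and 46.8 to 51.1 in PGK. INA carried most of that gap, at a mean of 45.8 CPM in CAG and 10.5 in PGK. ENO2, at 8.04 CPM in CAG and 1.61 in PGK, and EYA1, at 5.23 and 2.57, were also called higher in CAG. WT1 was called lower in CAG, and PAX2 and GATA3 were not called. The level of 5 hepatocyte markers summed to at most 0.133 CPM in CAG and 0.186 in PGK, with ALB at 0 in all libraries, and 6 immune markers summed to at most 2.22 CPM in CAG and 1.84 in PGK, with CD3E at 0. At a Benjamini-Hochberg adjusted p under 0.05, edgeR's quasi-likelihood test called 62.0% of the 13103 genes tested, 31.6% higher and 30.4% lower in CAG. The 3 libraries of one line lay wholly above or below those of the other for 65.5% of tested genes. In these bulk samples fewer expressing cells and less RNA per cell cannot be told apart.

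The 13 messengers differ in how their coding part ends, which bears on the tailing step. The last 24 bases of each annotated mRNA (GENCODE 29, GRCh38, mitochondrial chromosome) are shown 5′ to 3′, with the stop codon in capitals, or as much of it as mtDNA encodes.
MT-ND1 (chrM:4239-4262, plus strand): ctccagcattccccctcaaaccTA
MT-ND2 (chrM:5488-5511, plus strand): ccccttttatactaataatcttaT
MT-CO1 (chrM:7422-7445, plus strand): gaacccgtatacataaaatctAGA
MT-CO2 (chrM:8246-8269, plus strand): atagggcccgtatttaccctaTAG
MT-ATP8 (chrM:8549-8572, plus strand): cattcattgcccccacaatccTAG
MT-ATP6 (chrM:9184-9207, plus strand): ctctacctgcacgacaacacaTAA
MT-CO3 (chrM:9967-9990, plus strand): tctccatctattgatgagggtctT
MT-ND3 (chrM:10381-10404, plus strand): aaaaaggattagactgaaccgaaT
MT-ND4L (chrM:10743-10766, plus strand): aacctaaacctactccaatgcTAA
MT-ND4 (chrM:12114-12137, plus strand): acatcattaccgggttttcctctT
MT-ND5 (chrM:14125-14148, plus strand): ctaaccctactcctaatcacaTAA
MT-ND6 (chrM:14149-14172, minus strand): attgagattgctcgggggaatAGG
MT-CYB (chrM:15864-15887, plus strand): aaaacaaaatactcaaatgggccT

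In 6 of the 13 the encoded message stopped short of a whole stop codon, with 1 base left over in 5 and 2 bases in 1 (MT-ND1). The tail supplies the missing A bases. The other 7 carry 3 bases that end the frame. Only MT-ND6 lies on the minus strand of this map, and its mRNA is known to lack a poly(A) tail, while these libraries were made from polyadenylated RNA. The MT-ND4L and MT-ND4 reading frames share 7 bases on 1 mRNA, in capitals in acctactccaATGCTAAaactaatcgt (chrM:10750-10776, plus strand), and MT-ATP8 and MT-ATP6 share 46 bases on another. MT-ATP6 and MT-CO3 share 1 base. The sources used here do not give how the counting treated reads in shared bases or whether it used strand, so the split within these pairs is uncertain. GENCODE 29 annotates 394 nuclear pseudogenes of the 13 messengers, none of them (0) in the count table, and how reads that also match such copies were counted is likewise not given.

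As a group the mitochondrially encoded mRNAs took shares of the transcriptome that overlapped between the lines. They made up 3.43%, 3.44% and 3.06% of all counts in the CAG libraries and 3.13%, 3.64% and 3.17% in the PGK libraries. The means were 3.31% ± 0.219 in CAG and 3.31% ± 0.283 in PGK (SD, n = 3 each). The highest and the lowest of the 6 libraries were not in the same line, and the log2 ratio of 0.0014 had p = 1 in a two-sided exact permutation test, where 3 against 3 libraries cannot go below 0.1. Counts assigned to the nuclear MTRNR2L genes, which resemble mitochondrial ribosomal RNA, were few. Their summed level was 0.587 to 0.798 CPM in CAG and 0.605 to 1.30 in PGK. How reads that also match mitochondrial sequence were counted is not given.

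Of the 13 messengers 1 was called, against 62.0% of all tested genes, and it was higher in CAG. MT-CYB, which encodes cytochrome b of complex III, had 2903, 3202 and 2686 CPM in CAG and 2531, 2678 and 2458 CPM in PGK. Every CAG library lay above every PGK library, though the lowest CAG library exceeded the highest PGK library only narrowly. The means were 2931 ± 259 CPM in CAG and 2556 ± 112 in PGK (SD, n = 3 each), a log2 fold change (CAG over PGK) of 0.20 with a 95% interval of 0.07 to 0.32 and an adjusted p of 0.00696 in edgeR's quasi-likelihood test. The call was lost without CAG replicate 2, with a log2 fold change of 0.13 and an adjusted p of 0.0852. Over all settings tried its adjusted p ran from 3.57e-05 to 1, reaching 1 in the test against a fold of 1.2. No messenger was called lower: edgeR gave 0 at an adjusted or unadjusted p under 0.05, limma-voom likewise gave 0 adjusted and 0 unadjusted, and DESeq2 gave 0 adjusted and 1 unadjusted.

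**Figure D1:**
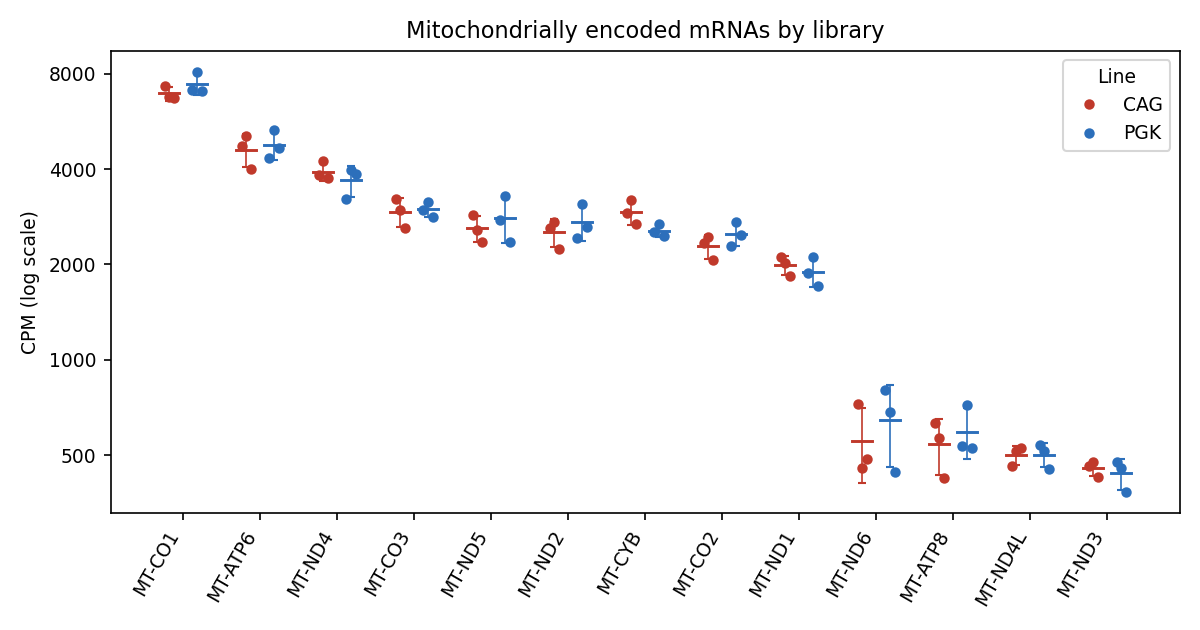
Level of each mitochondrially encoded mRNA in CPM (log axis) in the 3 CAG and 3 PGK libraries, with the mean and SD as bars. MT-CYB is the only mRNA whose 3 CAG points (2686 to 3202 CPM) all lie above the 3 PGK points (2458 to 2678 CPM).

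The 7 subunit mRNAs of complex I, the NADH dehydrogenase, did not pass the test. MT-ND1 had 2108, 2018 and 1839 CPM in CAG and 1877, 2102 and 1708 in PGK, and the lines overlapped, as they did for each of the other 6. MT-ND2 had 2607, 2723 and 2244 CPM in CAG and 2418, 3099 and 2621 in PGK. MT-ND3 had 462, 474 and 427 CPM in CAG and 477, 455 and 383 in PGK. In each of these PGK replicate 3 or PGK replicate 1 was the lowest PGK library. MT-ND4 had 3820, 4230 and 3734 CPM in CAG and 3206, 3977 and 3868 in PGK. MT-ND4L, its partner on the same mRNA, had 462, 517 and 526 CPM in CAG and 536, 517 and 453 in PGK. The log2 fold change was 0.09 for MT-ND4 (95% interval -0.07 to 0.26), and MT-ND4L averaged 501 ± 34.6 CPM in CAG and 502 ± 43.5 in PGK (SD, n = 3 each).

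MT-ND5 and MT-ND6 meet end to end on opposite strands. MT-ND5 had 2864, 2570 and 2360 CPM in CAG and 2768, 3279 and 2345 in PGK. MT-ND6 had 725, 456 and 486 CPM in CAG and 805, 686 and 441 in PGK. Replicate 1 was the highest library of each line for MT-ND6, and its spread was the widest of the 13, with a coefficient of variation of 26.6% in CAG and 28.8% in PGK. Its log2 fold change of -0.21 had a 95% interval of -1.10 to 0.67, so a fall of 1 log2 unit lay within the interval. The 3′ untranslated part of the MT-ND5 mRNA is known to run antisense across MT-ND6, and without a stated strand setting reads of the pair cannot be told apart. Counts of MT-ND6 relative to MT-ND5 were 0.253, 0.177 and 0.206 in CAG and 0.291, 0.209 and 0.188 in PGK. The part of tail selection in the MT-ND6 values was not tested.

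The 3 cytochrome c oxidase (complex IV) and 2 ATP synthase (complex V) mRNAs had log2 fold changes from -0.13 to -0.03, with none past the threshold. MT-CO1, the most abundant by counts, had 7338, 6751 and 6693 CPM in CAG and 7111, 8112 and 7047 in PGK. MT-CO2 had 2337, 2448 and 2060 CPM in CAG and 2293, 2728 and 2475 in PGK. MT-CO3 had 3206, 2973 and 2602 CPM in CAG and 2965, 3146 and 2832 in PGK. All 3 overlapped between lines. The 95% intervals of their log2 fold changes were -0.22 to 0.02 for MT-CO1, -0.28 to 0.02 for MT-CO2 and -0.16 to 0.11 for MT-CO3. MT-ATP6 had 4727, 5081 and 4004 CPM in CAG and 4349, 5329 and 4658 in PGK. MT-ATP8 had 633, 565 and 422 CPM in CAG and 535, 718 and 525 in PGK, with a 95% interval of -0.73 to 0.46. For 11 of the 13 messengers the interval lay within 0.5 log2 units of no change, the exceptions being MT-ND6 and MT-ATP8. A call of MT-CO2 as lower appeared in edgeR's quasi-likelihood test without CAG replicate 2 (log2 fold change -0.19, adjusted p 0.0411) and without PGK replicate 1 (-0.19, adjusted p 0.0123), in a range of adjusted p from 0.0123 to 1 over the settings. MT-ND5 was called lower without PGK replicate 3 (-0.22, adjusted p 0.0400), and MT-ND1 was called higher without PGK replicate 2 (0.15, adjusted p 0.0471).

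The small number of calls went with both small differences and a wide spread. The median absolute log2 fold change was 0.10 over the 13 messengers and 0.17 over the 309 nuclear genes in the same range of levels, of which 61.8% were called. The median coefficient of variation was 8.83% in CAG and 10.5% in PGK for the messengers, and 3.03% in CAG and 4.24% in PGK for those nuclear genes. Much of that spread was shared. PGK replicate 2 was the highest PGK library for 10 of the 13 messengers, PGK replicate 3 the lowest for 9, and CAG replicate 3 the lowest CAG library for 11. Expressed as shares of the mitochondrially encoded counts, which removes the common part, the median coefficient of variation was 5.25% in CAG and 5.40% in PGK.

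As shares of the mitochondrially encoded counts, 2 of the 13 messengers did not overlap between the lines. Such shares have no counterpart among all tested genes. By level in CPM, 1 of the 13 did not overlap, against 65.5% of all tested genes. MT-CYB made up 8.49%, 9.42% and 8.93% of these counts in CAG and 7.94%, 7.27% and 7.73% in PGK. MT-ND1 made up 6.17%, 5.93% and 6.11% in CAG and 5.89%, 5.71% and 5.37% in PGK. Both shares were higher in every CAG library than in any PGK library, and the other 11 overlapped. MT-CO1 was the largest share, 21.2% ± 1.22 in CAG and 22.2% ± 0.143 in PGK (SD, n = 3 each). Since shares sum to a fixed total, a higher share of some implies a lower one of others.

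**Figure D2:**
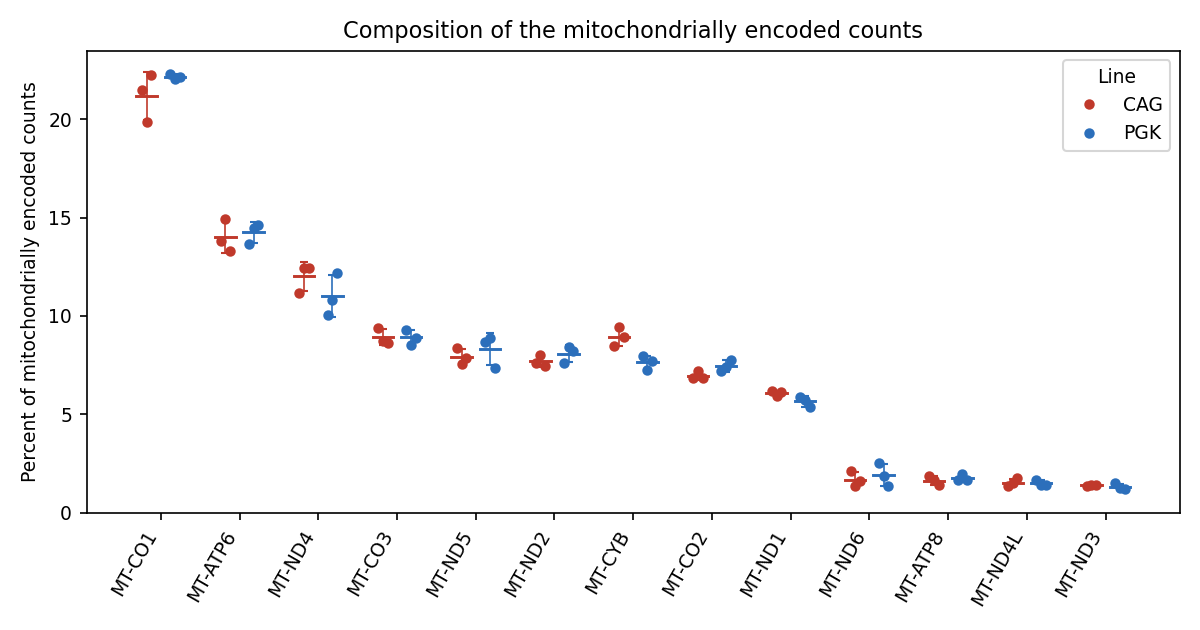
Percent of the mitochondrially encoded counts on each mRNA in the 3 CAG and 3 PGK libraries, with the mean and SD as bars. The CAG and PGK points separate for MT-CYB (8.49% to 9.42% in CAG, 7.27% to 7.94% in PGK) and for MT-ND1, and overlap for the other 11.

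Per kilobase of annotated length, the messengers spanned a moderate range in both lines. MT-ATP6 was highest, at 6761 ± 806 CPM per kilobase in CAG and 7017 ± 736 in PGK (SD, n = 3 each), followed by MT-CO1 at 4493 ± 232 in CAG and 4814 ± 387 in PGK. In PGK the steps between MT-ATP6 and MT-CO1 and between MT-CO1 and MT-CO3 were 3.75 and 3.28 times the pooled SD, and every later step was below 2 times it. MT-CO3 had 3733 ± 389 in CAG and 3802 ± 201 in PGK, and MT-CO2 had 3335 ± 292 in CAG and 3653 ± 319 in PGK. MT-ATP8 and MT-ND4 changed places between the lines, as did MT-ND2 and MT-CYB, and the other ranks matched. MT-ATP8 had 2609 ± 520 CPM per kilobase in CAG and 2864 ± 525 in PGK, against 6761 in CAG and 7017 in PGK for MT-ATP6 of the same mRNA. MT-ATP8 spans 207 bases and shares 46 with MT-ATP6, and how reads in shared bases were counted is not given. Its rate is therefore uncertain, and the effect of short length on these rates was not tested. MT-ND3 and MT-ND6 were lowest, at 1314 ± 70.0 and 1058 ± 281 in CAG and 1267 ± 142 and 1226 ± 353 in PGK. The nuclear factors ran from 3.05 to 46.4 CPM per kilobase in CAG and from 2.38 to 53.4 in PGK, with SSBP1 highest in both lines. Their lengths are unions of all annotated exons, such as 9938 bases for MTERF4, which can exceed the length of any single mRNA. These rates may therefore be too low, and unevenly so, beside those of the messengers.

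Among the 25 nuclear factors the call rate was near the background but the differences were larger than among the messengers they serve. In edgeR's quasi-likelihood test 5 were higher and 9 lower in CAG, or 56.0% called against 62.0% of all tested genes, with a median log2 fold change of -0.09 against -0.0021 for all tested genes. The median absolute log2 fold change was 0.20, against 0.10 for the 13 messengers and 0.26 for all tested genes. Groups did not overlap for 16 of the 25, against 65.5% of all tested genes. The plot of all 38 members by role shows these values with their intervals.

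**Figure D3:**
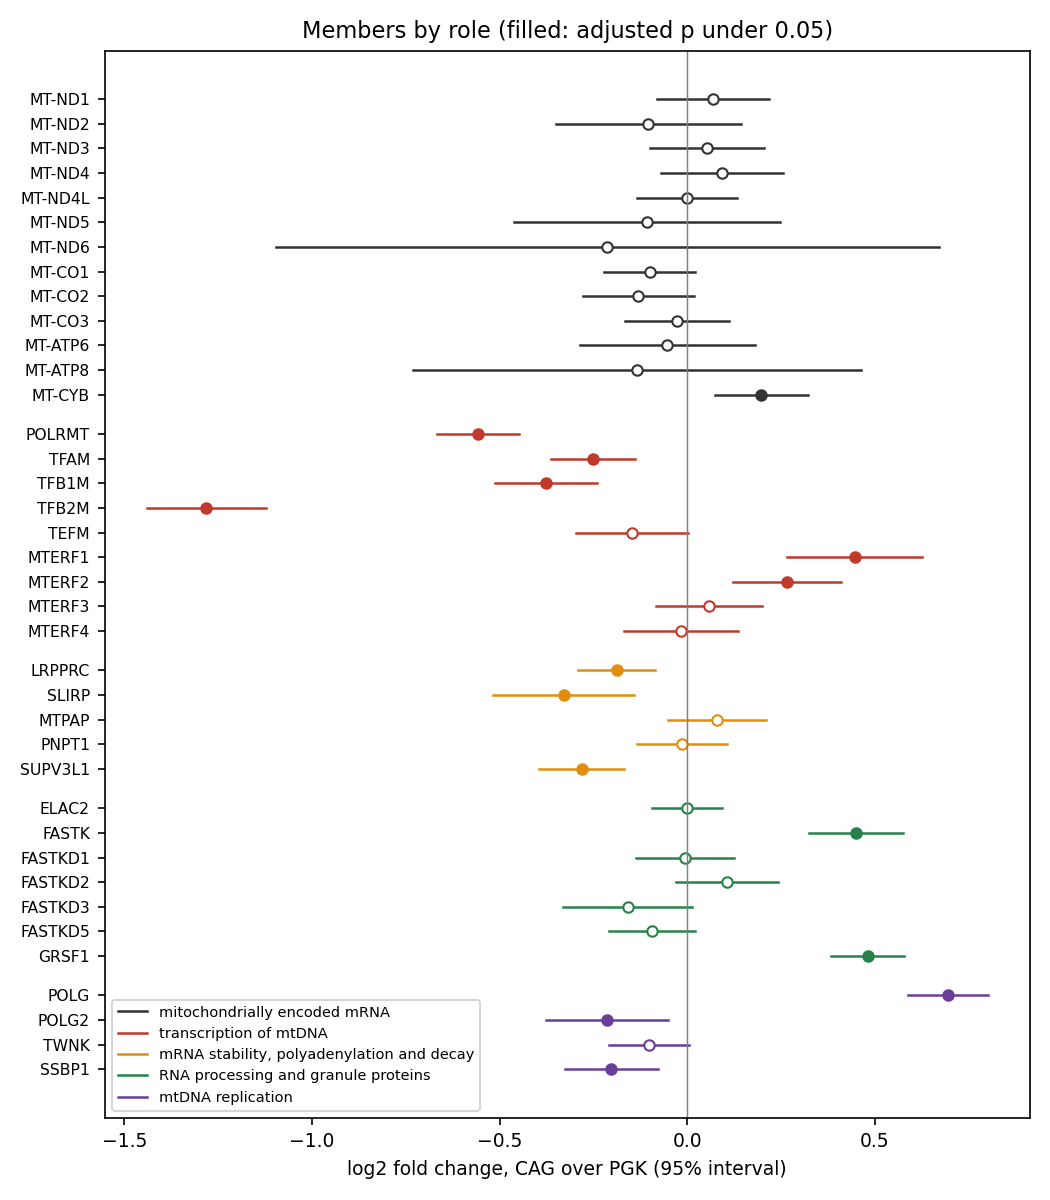
log2 fold change (CAG over PGK) of the 38 members with 95% intervals, grouped by role, with filled points for an adjusted p under 0.05. The 13 mitochondrially encoded mRNAs lie between -0.21 and 0.20, and the nuclear factors between -1.28 (TFB2M) and 0.69 (POLG).

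The transcription machinery of mtDNA held the largest difference. TFB2M, the initiation factor that helps the polymerase melt the promoter, had 10.8, 11.0 and 11.9 CPM in CAG and 26.0, 28.9 and 26.9 CPM in PGK. The highest CAG library lay far below the lowest PGK library, and the means were 11.2 ± 0.584 CPM in CAG and 27.3 ± 1.52 in PGK (SD, n = 3 each). The log2 fold change was -1.28 (SE 0.08), with an adjusted p of 7.39e-11 in edgeR's quasi-likelihood test. POLRMT, the single-subunit RNA polymerase of mitochondria, had 159, 157 and 168 CPM in CAG and 252, 223 and 238 CPM in PGK. Its log2 fold change was -0.56 (SE 0.05, adjusted p 2.66e-08). The CAG libraries were again all lower. TFAM, the packaging protein that also bends promoter DNA for initiation, was lower by less, at 159 ± 5.97 CPM in CAG and 189 ± 13.3 in PGK (SD, n = 3 each), for a log2 fold change of -0.25 (SE 0.05).

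Over the 9 genes of transcription 2 were higher and 4 lower, or 66.7% called, near the 62.0% of all tested genes. GENCODE 29 annotates 2 pseudogenes of TFAM and 1 of POLRMT, and how reads matching them were counted is unknown. TEFM, the elongation factor, had a log2 fold change of -0.15 with a 95% interval of -0.30 to 0.00 and was not called (adjusted p 0.0804 in edgeR's quasi-likelihood test), although all CAG libraries were lower. TEFM overlaps ADAP2 on the other strand, which had a log2 fold change of 1.44, so its level is uncertain. TFB1M, a paralogue of TFB2M that methylates the small ribosomal RNA, had 24.9, 22.8 and 24.3 CPM in CAG and 30.4, 32.2 and 31.0 in PGK, for a log2 fold change of -0.38 (SE 0.07, adjusted p 6.04e-05). Its span overlaps TIAM2 and CLDN20 on the other strand, and TIAM2, at 6.75 CPM in CAG and 6.09 in PGK, had a log2 fold change of 0.15.

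Of the 4 genes of the MTERF family 2 rose, a called share of 50% that is no higher than the 62.0% of all tested genes. MTERF1, which binds the terminator after the ribosomal RNA genes, had 15.3, 17.5 and 14.7 CPM in CAG and 11.8, 12.0 and 11.0 CPM in PGK, with every CAG library higher and a log2 fold change of 0.45 (SE 0.09, adjusted p 1.79e-04 in edgeR's quasi-likelihood test). MTERF2 averaged 23.4 ± 1.03 CPM in CAG and 19.5 ± 0.584 in PGK (SD, n = 3 each), for a log2 fold change of 0.27 (SE 0.07, adjusted p 0.00256). MTERF2 overlaps TMEM263 on the other strand, at 73.1 CPM in CAG and 74.3 in PGK, so its level is uncertain. MTERF3, described as a repressor of mitochondrial transcription, and MTERF4, which works with NSUN4 on the large ribosomal subunit, did not pass, with 95% intervals of -0.08 to 0.20 and -0.17 to 0.13.

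**Figure D4:**
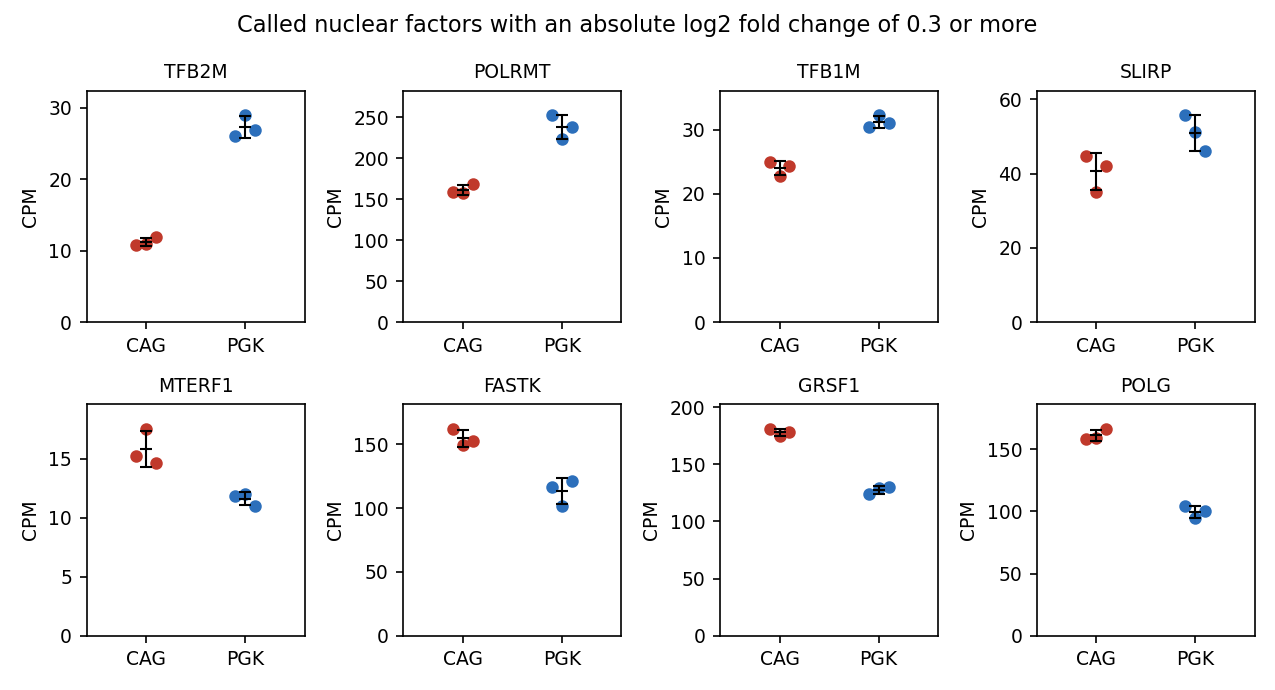
Level in CPM of the 8 called nuclear factors with an absolute log2 fold change of at least 0.3, in the 3 CAG and 3 PGK libraries, with the mean and SD. TFB2M lies at 10.8 to 11.9 CPM in CAG and 26.0 to 28.9 CPM in PGK, and POLG at 159 to 166 CPM in CAG and 94.7 to 105 CPM in PGK.

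Of the 5 factors for stability, tailing and decay, 3 fell, or 60% called, close to the 62.0% of all tested genes. SLIRP, which binds LRPPRC and protects mitochondrial mRNAs, had 44.7, 35.0 and 42.0 CPM in CAG and 55.7, 51.2 and 46.0 CPM in PGK. The highest CAG and lowest PGK libraries nearly met, and the log2 fold change was -0.33 (SE 0.09, adjusted p 0.00468 in edgeR's quasi-likelihood test). SLIRP overlaps SNW1 on the other strand, which itself had a log2 fold change of -0.32, so its level is uncertain. LRPPRC, its partner, averaged 250 ± 8.34 CPM in CAG and 285 ± 15.1 in PGK (SD, n = 3 each), for a log2 fold change of -0.19 (SE 0.05, adjusted p 0.00277). SUPV3L1, the helicase of the RNA degradosome, averaged 49.8 ± 1.32 CPM in CAG and 60.5 ± 2.23 in PGK, for a log2 fold change of -0.28 (SE 0.05, adjusted p 1.53e-04). PNPT1, the nuclease that SUPV3L1 works with, had a 95% interval of -0.13 to 0.10, and MTPAP, the poly(A) polymerase that completes the short stop codons shown above, one of -0.05 to 0.21.

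Among the 7 processing and RNA granule proteins 2 rose, or 28.6%, against 31.6% called higher and 62.0% called in either direction among all tested genes. GRSF1, which binds G-rich RNA in mitochondrial granules, had 181, 175 and 178 CPM in CAG and 124, 129 and 130 CPM in PGK. The lines did not overlap, with a log2 fold change of 0.48 (SE 0.05, adjusted p 4.61e-08 in edgeR's quasi-likelihood test). FASTK, a form of which is required for MT-ND6 mRNA, had 162, 149 and 153 CPM in CAG and 117, 102 and 121 CPM in PGK, for a log2 fold change of 0.45 (SE 0.06, adjusted p 3.50e-06). MT-ND6 itself was not called, as given above. ELAC2, which cuts the 3′ ends of transfer RNAs out of the precursor, averaged 208 ± 4.41 CPM over the CAG libraries and 208 ± 4.26 over the PGK libraries (SD, n = 3 each). The log2 fold changes of FASTKD1, FASTKD2, FASTKD3 and FASTKD5 were -0.01, 0.11, -0.16 and -0.09 and did not pass. FASTKD5 overlaps UBOX5 on the same strand, which had a log2 fold change of 0.71. FASTKD3 overlaps MTRR on the other strand, at 42.0 CPM in CAG and 44.1 in PGK. The levels of FASTKD5 and FASTKD3 are therefore uncertain. FASTKD2 and FASTKD3 passed with 1 PGK library left out, at adjusted p of 0.0307 without PGK replicate 2 and 0.0236 without PGK replicate 3 in edgeR's quasi-likelihood test.

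Of the 4 replication factors POLG rose and 2 fell, and with so few genes the 3 calls are not read against the 62.0% of all tested genes. POLG, the catalytic subunit of the mtDNA polymerase, had 159, 159 and 166 CPM in CAG and 105, 94.7 and 99.9 CPM in PGK, the largest increase of the 38 members. The log2 fold change was 0.69 (SE 0.05, adjusted p 1.23e-09 in edgeR's quasi-likelihood test). POLG overlaps FANCI on the other strand, which had a log2 fold change of 0.42, so its level is uncertain. Its accessory subunit POLG2 averaged 24.2 ± 0.736 CPM in CAG and 28.0 ± 3.22 in PGK (SD, n = 3 each), for a log2 fold change of -0.21 (SE 0.08, adjusted p 0.0228). That call was lost without PGK replicate 1 (-0.12, adjusted p 0.157) and without CAG replicate 2 (-0.19, adjusted p 0.0795), in a range up to 0.820 over all settings. SSBP1, which coats single-stranded mtDNA, averaged 231 ± 18.1 CPM in CAG and 266 ± 16.9 in PGK, for a log2 fold change of -0.20 (SE 0.06, adjusted p 0.00590), with overlap between the lines and loss of the call without CAG replicate 3 (-0.16, adjusted p 0.0522, range up to 0.986). TWNK, the replicative helicase, had a 95% interval of -0.21 to 0.0049. It overlaps MRPL43, which had a log2 fold change of -0.25, on the other strand.

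Some of the differences were shared with genes nearby on the chromosome and some were not. For each nuclear factor the median log2 fold change of up to 25 tested genes on either side was taken (34 to 50 genes in all). POLRMT on chromosome 19 had a log2 fold change of -0.56 and its 34 neighbours a median of -0.56, with 29 of them called lower. GRSF1 on chromosome 4, at 0.48, lay beside a neighbour median of 0.46, with 46 of 50 called higher. FASTK on chromosome 7, at 0.45, lay beside 0.35, and POLG on chromosome 15, at 0.69, beside 0.42. TFB2M on chromosome 1 stood 1.23 below the median of its 39 neighbours, which was -0.05. TFB1M, SLIRP and MTERF1 also had neighbour medians near 0, at -0.05, -0.05 and 0.08, and SSBP1 was lower beside a neighbour median of 0.14. Of the 8 called factors with an absolute log2 fold change of at least 0.3, 3 lay within 0.1 of the median of their neighbours. Among all 25 nuclear factors 9 did, a similar share. Whether copy number differs between the clones at these places was not tested.

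**Figure D5:**
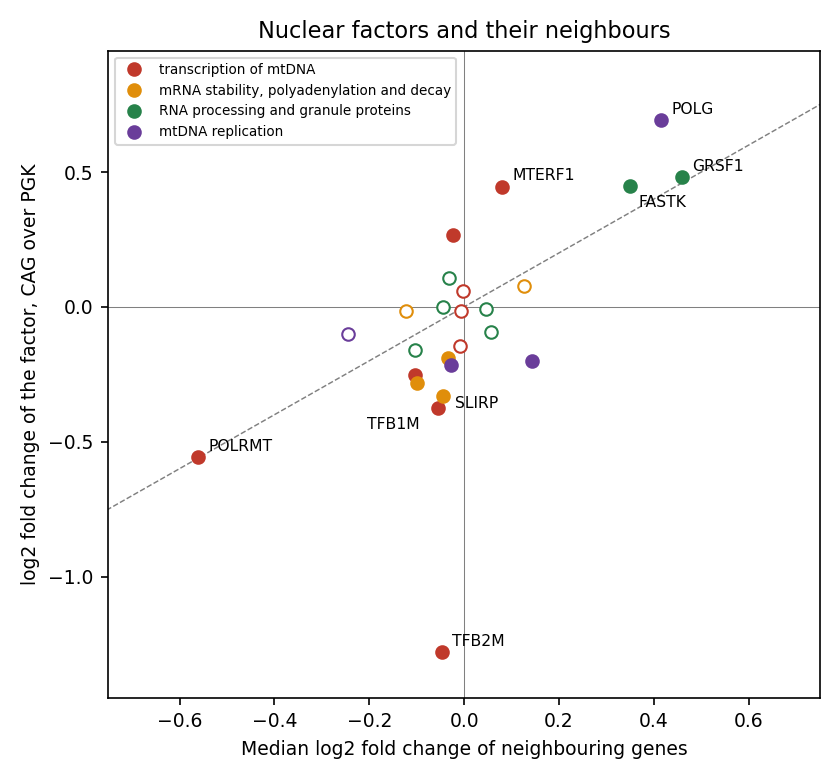
log2 fold change (CAG over PGK) of each nuclear factor against the median of up to 25 tested genes on either side, with filled points for an adjusted p under 0.05 and the dashed line marking equality. POLRMT (-0.56 against -0.56) and GRSF1 (0.48 against 0.46) lie on the line, and TFB2M (-1.28 against -0.05) lies far below it.

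Promoters were searched on both strands for the letters bound by NRF1, nuclear respiratory factor 1, which is known to drive genes for mitochondrial transcription. RefSeq promoters (GRCh38.p14, 250 bases before to 50 after the start) were at hand for 22 of the 25 factors. The motif was first searched as CGCANGCGC with a G before it, and 4 of the 22 promoters (18.2%) matched, TFAM, TFB1M, POLRMT and POLG2, against 5.78% of all 35116 promoters. It was then shortened to CGCANGCGC after that count had been seen, and 6 of the 22 (27.3%) matched, against 7.47% of all promoters. TFB2M and MTPAP match the shorter form only, so the count depends on a length chosen with the outcome known, and no weight is put on either share. The first match of the shorter form is in capitals in the stretches below, shown for the transcription genes that were lower in CAG and for MTPAP, which was not called.
TFB2M (chr1:246566261-246566285, minus strand): ccgctgttCGCATGCGCaggctcta
TFB1M (chr6:155314600-155314624, minus strand): aggacttaGCGCATGCGctctcagc
TFAM (chr10:58385339-58385363, plus strand): gctctcccGCGCCTGCGccaattcc
POLRMT (chr19:633545-633569, minus strand): cggcgcggGCGCATGCGcaggcgcg
MTPAP (chr10:30349331-30349355, minus strand): ccccccgaCGCATGCGCgaaaacgc

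The remaining match of the shorter form was in POLG2. The motif nearly mirrors itself, so matches on opposite strands overlap each other. The ETS letters CCGGAAGT, of the kind bound by GABPA, were in 6 of the 22 promoters (MTERF1, MTERF4, SSBP1, ELAC2, TEFM and POLRMT) and in 4.14% of all promoters. This search was also unplanned. All 35116 promoters outnumber the 20169 genes of the count table, so the sets compared are unlike and no weight is put on this share. A match describes letters only.

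Of 12 regulators of nuclear mitochondrial genes 3 were higher and 4 lower, or 58.3% called against 62.0% of all tested genes, with a median log2 fold change of 0.09. PPARGC1A, a coactivator of mitochondrial biogenesis, was scarce, at 2.48, 3.14 and 2.81 CPM in CAG and 0.605, 1.39 and 0.876 CPM in PGK. Its log2 fold change was 1.54 (SE 0.23, adjusted p 1.40e-05 in edgeR's quasi-likelihood test). PPARGC1B, its more abundant relative in these cells, averaged 50.5 ± 0.581 CPM in CAG and 78.5 ± 2.29 in PGK (SD, n = 3 each), for a log2 fold change of -0.64 (SE 0.05), beside a neighbour median of -0.42. NRF1 did not pass, at a log2 fold change of 0.12 (SE 0.06, adjusted p 0.0908), and GABPA fell, at -0.24 (SE 0.05).

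Other genes of mitochondrial gene expression came from lists drawn from general knowledge, again with earlier results of these data known. They were called at rates near or below the 62.0% of all tested genes in 3 of 4 lists. Of 14 further genes of transfer RNA excision and RNA turnover 5 were higher and 4 lower (64.3% called), with a median of -0.01, led by the CCA-adding enzyme TRNT1 at 0.67 (SE 0.07) and the nuclease ENDOG at -0.65 (SE 0.07). Of 19 RNA-modifying enzymes 3 were higher and 6 lower (47.4% called), with a median of -0.06. The methyltransferase NSUN3 stood at 0.35 (SE 0.09) and the transfer RNA modifier GTPBP3 at -0.61 (SE 0.06). Of 20 translation factors 6 were higher and 6 lower (60% called), with a median of -0.05, among them the ribosome rescue factor MTRFR at 0.55 (SE 0.07) and the GTPase GUF1 at -0.50 (SE 0.06).

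Of 19 further genes of mtDNA maintenance and nucleotide supply 5 were higher and 10 lower, with a median of -0.15, or 78.9% called against 62.0% of all tested genes. The primase PRIMPOL had 6.91 ± 0.354 CPM in CAG and 3.95 ± 0.530 in PGK (SD, n = 3 each), for a log2 fold change of 0.81 (SE 0.12) beside a neighbour median of 0.72. The mitochondrial topoisomerase TOP1MT had 42.6 ± 0.999 CPM in CAG and 79.4 ± 3.49 in PGK (SD, n = 3 each), for a log2 fold change of -0.90 (SE 0.05) beside a neighbour median of -0.41. GTPBP3, NSUN3, TRNT1 and MTRFR also lay among neighbours with medians of the same sign, at -0.47, 0.52, 0.28 and 0.36. ENDOG and GUF1 lay among neighbours with medians near 0, at -0.05 and 0.05.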

How the data were processed

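The authors deposited whole-number read counts per Ensembl gene for 6 libraries, not normalized and not pooled. The build hg19 and the tools featureCounts 2.0.3, HISAT2 2.2.1, Bowtie2 2.5.1 and cutadapt 4.6 come from the submitters' processing notes. The sources used here do not give the role of each tool, the strand setting, the handling of reads with several matches or the mitochondrial sequence. All 6 columns carried a sample's label (0 left over). Symbols, lengths, gene order and mitochondrial coordinates came from GENCODE 29 (GRCh38), and no hg19 coordinates are given; 823 rows had no symbol. Mitochondrial ribosomal and transfer RNAs had 0 rows in the count table and could not be analysed. The mitochondrial share of all counts therefore leaves them out.

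Counts were filtered with edgeR's filterByExpr, scaled by TMM and tested by the robust quasi-likelihood method of edgeR 4.0.16 in R 4.3.3 (two-sided) with Benjamini-Hochberg adjustment over 13103 genes. SE is the absolute log2 fold change over the root of F, and 95% intervals use the test's degrees of freedom. CPM are on TMM-scaled library sizes; rates per kilobase use the union of annotated exons. The value that edgeR names the biological coefficient of variation was 0.0494. It measures only how these libraries vary, which may be technical variation. The fit was tested on simulated data. DESeq2 1.42.0, limma-voom 3.58.1, other filters and scalings, a replicate block, a minimum fold of 1.2 in the test and leaving out each library were alternatives. Values in every library are given for all mitochondrial messengers and for called factors with an absolute log2 fold change of at least 0.3; from each other list the called gene with the largest change in each direction and at least 1 CPM is named, and NRF1 and GABPA were added after their values were seen. Promoter motifs were not among the planned analyses, and the NRF1 motif was shortened after its first count. Members and lists were chosen with earlier results of these data known.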

Additional observations from a re-analysis of the deposited data

How the results depend on the processing

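When the test required a fold above 1.2, 2433 tested genes were higher and 1813 lower, and 0 mitochondrial messengers were higher. Of the nuclear factors 4 were higher (MTERF1, FASTK, GRSF1 and POLG) and 3 lower (POLRMT, TFB1M and TFB2M). In all, 7 of the 15 called members were kept. Scaling, filters, DESeq2 and limma-voom changed the call of none of the 38 members. The labels do not say whether libraries of the same number belong together. Deviations from the line means correlated at 0.108, 0.103 and 0.0131 for the 3 same-numbered pairs, and at -0.111 to 0.00988 for the other pairs. A weak pairing by number was therefore possible and was not settled. Deviations within a line cancel, so positive correlations for some pairs go with negative ones for others. A fit that pairs libraries by number was run as an alternative. A replicate block gave 4461 genes higher and 4400 lower, against 4139 and 3986 without it. With the replicate block 1 mitochondrial messenger was lower (MT-CO2, adjusted p 0.0125 in edgeR) and TWNK was also called. Leaving out 1 library gave 0 to 2 mitochondrial messengers higher and 0 to 1 lower, 5 to 6 nuclear factors higher and 8 to 10 lower, and a log2 ratio of the mitochondrial share from -0.0387 to 0.0707. On the TMM-scaled library size this ratio was -0.0314, without MT-CO1 it was 0.0192, and without MT-ND6, MT-ND4L and MT-ATP8 it was 0.0062. The mitochondrial messengers had 8735 to 180468 counts per library.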
